A study of Rattus norvegicus with 14 samples.

Results

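The genes examined here encode the proteins of the mitochondrial ribosome, and they were chosen by name: every symbol that starts with Mrpl or Mrps and had a mean normalized read count of at least 10 in the neuron or the astrocyte table. This rule gave 76 genes, 47 with Mrpl symbols for the large subunit and 29 with Mrps symbols for the small subunit. The tables listed 77 such symbols among 18239 genes in neurons and 31791 in astrocytes. The symbol left out, Mrpl53, was listed at 0 in all 6 astrocyte libraries. The 76 members include 3 genes that the tables spell in lower case (mrpl9, mrpl11 and mrpl24). All 76 members passed the same minimum in both cell types and were tested in each.

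RNA-seq was carried out on primary hippocampal neurons and primary hippocampal astrocytes from embryonic day 18 rats. Every culture was held in an Aging Model (AM) medium, a supplement-reduced medium for neurons and charcoal-stripped serum for astrocytes, so the vehicle groups carry that condition too. AM-Veh cultures received 0.001% ethanol and AM-Allo cultures received 100 nM allopregnanolone (Allo), a neurosteroid made from progesterone that acts on GABA-A receptors. Neurons (4 AM-Veh and 4 AM-Allo libraries) entered AM medium at day 10 for 4 h and were then treated for 16 h, and astrocytes (3 and 3 libraries) spent 24 h in AM medium and 24 h under treatment. The labels do not say whether libraries of a group came from separate cultures, so p-values measure only the spread between these libraries, which may be technical.

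The mitochondrial ribosome translates the few messages of mitochondrial DNA, all of them for subunits of the respiratory chain and ATP synthase. Its proteins are all encoded in the nucleus, made in the cytosol and imported, then assembled on ribosomal RNAs that mitochondrial DNA itself encodes. Some have counterparts in bacterial ribosomes, while others were gained in the mitochondrial lineage. The symbols do not always follow the subunit: the proteins of Mrps18a and Mrps30 sit in the large subunit, and Mrps36 is now named Kgd4 in the rat RefSeq annotation, since its protein belongs to the oxoglutarate dehydrogenase complex. Transcription of such nuclear genes is commonly linked to the factors NRF1, YY1 and the ETS family member GABP, and the study itself followed Nrf1 as a regulator of mitochondrial biogenesis.

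RefSeq promoter windows of the rat assembly GRCr8, 250 bases before to 50 after each gene's start, could be matched to 62 members. The exact palindrome of the NRF1 core sequence, printed in capitals in the lines that follow and the same on both strands, lay in 4 of these windows (6.45%), against 1.16% of the 19005 windows of protein-coding genes. Those 4 stretches are shown because they are the only member windows with the full palindrome. The stretches lie at chr1:169575700-169575804 (minus strand), chr17:55260539-55260648 (plus strand), chr9:88554868-88554977 (plus strand) and chr20:2842936-2843005 (plus strand), in the order printed.
Mrpl17: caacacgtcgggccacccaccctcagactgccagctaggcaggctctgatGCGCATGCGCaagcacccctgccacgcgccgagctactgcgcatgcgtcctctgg
Mrpl32: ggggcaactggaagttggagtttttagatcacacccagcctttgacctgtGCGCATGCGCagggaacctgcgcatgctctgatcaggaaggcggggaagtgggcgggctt
Mrpl44: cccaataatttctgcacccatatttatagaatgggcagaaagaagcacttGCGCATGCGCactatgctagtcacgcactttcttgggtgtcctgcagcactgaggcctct
Mrps18b: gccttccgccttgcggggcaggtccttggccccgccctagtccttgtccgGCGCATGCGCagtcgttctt

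With any base allowed at position 6 of the capitals (which includes the exact palindrome), 10 member windows (16.1%) held the NRF1 sequence, against 6.2% of protein-coding windows. The YY1 sequence, in capitals in the lines of Mrps18a and Mrps30 and searched on both strands, was in 7 member windows (11.3%) and in 1.1% of protein-coding windows. It is shown for 2 members, Mrps18a at chr9:22367360-22367389 and Mrps30 at chr2:52195866-52195895, both on the minus strand, because their proteins sit in the large subunit despite their names and both had lower counts in every AM-Allo astrocyte library than in any AM-Veh library.
Mrps18a: tgtgttcccAAGATGGCGGCcctcagggct
Mrps30: cggaggacaAAGATGGCGGCtgccaggtat

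The ETS and GABP sequence CCGGAAGT was found, on either strand, in 7 member windows (11.3%) and in 5.12% of protein-coding windows. At least 1 of these sequences was in 22 of 62 member windows (35.5%) and in 11.6% of protein-coding windows, and CpG dinucleotides numbered 18 in the median member window and 12 in the median protein-coding window. A match describes letters in a window and does not show that a factor binds there. In the same assembly, 17 of the 62 members (27.4%) had a protein-coding neighbour that starts within 1000 bases on the opposite strand and runs away from the member, against 7.22% of protein-coding genes. Mrpl46 and Mrps11, 1 gene from each subunit, form such an arrangement with each other and start 234 bases apart. Mrpl47 starts 244 bases from Ndufb5, a gene of respiratory complex I, and Mrpl51 starts 50 bases from Ncapd2. RefSeq also names 44 pseudogenes or similar genes after 24 of the members, up to 9 for Mrpl30, and reads of such copies could have been counted to the member.

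The libraries held an estimated 19700000 to 24900000 reads on genes in neurons and 22200000 to 28500000 in astrocytes. The summed level of the 11 neuron markers listed was 62957 to 75661 normalized counts in neuron cultures and 26831 to 28409 in astrocyte cultures. Of these markers 9 were higher in every neuron library, among them the beta-tubulin gene Tubb3 at 8417 to 11139 against 25.5 to 36.6, and 2 were higher in every astrocyte library, Stmn2 at 20946 to 22152 against 8802 to 11475 and Gad1 at 1719 to 1948 against 692 to 1463. The neuron cultures also carried astrocyte markers, which differed from the astrocyte cultures in both directions. Gfap, the astrocyte filament gene, ranged from 68164 to 118740 in neuron cultures and from 131340 to 139940 in astrocyte cultures. Aqp4, Sox9 and Aldoc were likewise lower in every neuron library than in any astrocyte library. Slc1a3, Slc1a2, Aldh1l1, S100b and Gja1 were higher in every neuron library, S100b at 15106 to 18994 against 4446 to 5010. The summed level of the 9 astrocyte markers was 198970 to 258960 in neuron cultures and 239670 to 253760 in astrocyte cultures. The astrocyte cultures held mesenchymal and endothelial markers at a summed level of 57166 to 68413, against 272 to 2232 in neuron cultures. In this list Col1a1, Col1a2, Col3a1 and Kdr were higher in every astrocyte library. Dcn went the other way, at 1.94 to 8.29 in astrocyte and 93.9 to 266 in neuron cultures. Lum overlapped, and Cldn5 was at 0 in astrocyte cultures. The neuron cultures held oligodendrocyte lineage markers at a summed level of 38365 to 45308, against 3917 to 4359 in astrocyte cultures. These marker values are normalized counts of tables normalized separately, so small differences between the cell types need not hold as shares of a library's total. In such bulk samples, fewer cells of a type and less RNA per cell cannot be told apart.

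Levels are given below as normalized counts and, for sums over members and for comparison of the cell types, as normalized counts per 1000000 of a library's total (CPM). The 76 members summed to 2541 to 2641 CPM in the 8 neuron libraries and to 1885 to 1963 CPM in the 6 astrocyte libraries. In neurons the Mrpl genes summed to 1642 ± 17.7 CPM in AM-Veh (SD, n = 4) and 1620 ± 10.4 in AM-Allo (SD, n = 4), and the Mrps genes to 969.9 ± 10.1 and 946.4 ± 17.1. In astrocytes the Mrpl genes summed to 1228 ± 16.2 in AM-Veh (SD, n = 3) and 1240 ± 27.5 in AM-Allo (SD, n = 3), and the Mrps genes to 693.6 ± 10.3 and 694.0 ± 19.6. For both subunits the ranges of the 2 treatments overlapped within each cell type, and every neuron library lay above every astrocyte library. The Mrpl sum divided by the Mrps sum lay between 1.67 and 1.75 in neurons and between 1.72 and 1.82 in astrocytes, so the balance of the subunits also overlapped between the cell types.

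**Figure D1:**
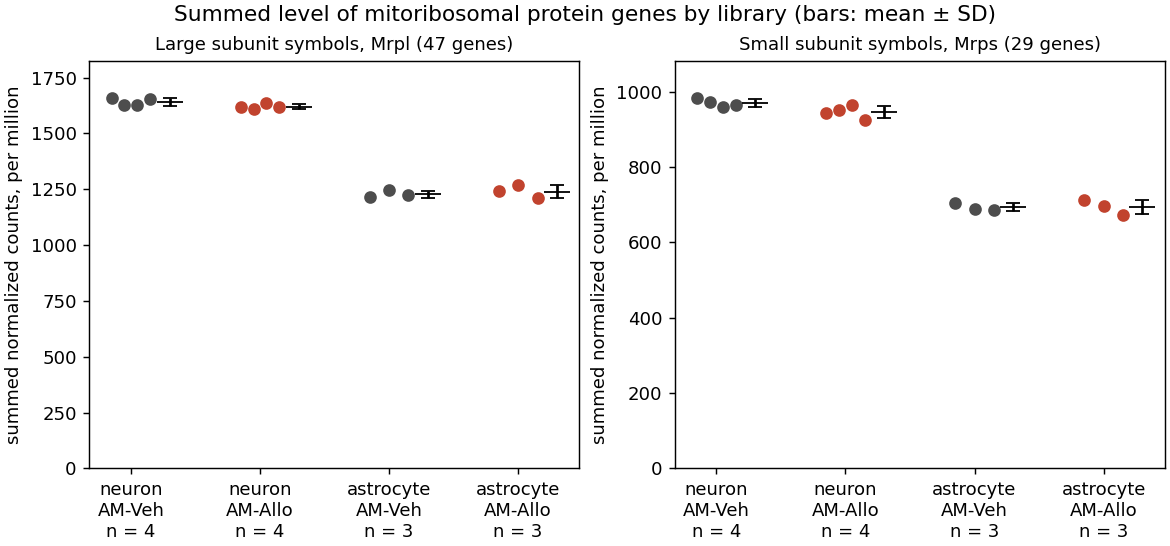
Summed CPM of the Mrpl genes (left) and the Mrps genes (right) for each library (points; grey AM-Veh, red AM-Allo) with the group mean and SD (black). Neuron libraries lie between 1611 and 1658 for Mrpl and astrocyte libraries between 1212 and 1267, and the treatment groups overlap within each cell type.

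The normalized counts of a gene depend on its length, and no transcript lengths were used here, so levels are compared between cultures and not between genes. Most members varied little among vehicle libraries: the coefficient of variation was under 10% for 45 of 47 Mrpl and 27 of 29 Mrps genes in neurons, and for 44 and 25 in astrocytes. Mrpl12, whose protein forms part of the factor-binding stalk and is also known to bind mitochondrial RNA polymerase, had a vehicle level of 1492 ± 61.0 normalized counts in neurons (SD, n = 4). Mrpl3, a core protein of the large subunit that is mutated in a mitochondrial cardiomyopathy, was at 2216 ± 43.1 in vehicle neurons and 1345 ± 43.1 in vehicle astrocytes (SD, n = 4 and 3). Mrpl1, whose protein forms a mobile stalk next to the exit site for transfer RNA, had few counts. It ranged from 29.9 to 42.1 in AM-Veh and from 22.4 to 34.2 in AM-Allo neurons, and from 10.5 to 17.4 and from 5.53 to 28.3 in astrocytes, so its values rest on few reads and its groups overlapped in both cell types.

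Levels of the remaining genes chosen for their roles are given here as vehicle means, with n = 4 for neurons and n = 3 for astrocytes. The tables were normalized separately, so these counts do not compare the cell types. Mrpl44, for example, had more counts in astrocytes. Its mean over all libraries of a cell type was 26.8 CPM in neurons and 25.8 in astrocytes, and the libraries overlapped. Mrps12 and Mrps16, both of the small subunit and with bacterial counterparts, had 368 and 665 normalized counts in neurons and 286 and 436 in astrocytes. Mrps22 and Mrps27, which lack bacterial counterparts, had 928 and 618 in neurons and 484 and 454 in astrocytes. Mrpl44, which resembles ribonucleases of the RNase III family, had 589.7 in neurons and 607 in astrocytes, while Mrpl58, a peptidyl-tRNA hydrolase built into the large subunit, had 394 and 359. Mrpl41 had 752 and 652, Mrps30 had 827 and 493.2, and Mrps36 had 434 and 340.4. The 3 genes related to bacterial S18 differ in place, since Mrps18b and Mrps18c belong to the small subunit. Their vehicle means in neurons were 964 for Mrps18a, 988 for Mrps18b and 397 for Mrps18c, and in astrocytes 683, 612 and 339.

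Side by side, most members took a larger share of the neuron libraries than of the astrocyte libraries. The tables were normalized separately and no test was made between them, so the values are CPM of each library's own total. Every neuron library lay above every astrocyte library for 50 of the 76 members (40.2% of the 14386 genes tested in both tables did so), and every neuron library lay below for 4 (30.5% of all genes). The other 22 overlapped. The median ratio of neurons to astrocytes was 1.36 for the members, 1.40 for Mrpl and 1.35 for Mrps genes, and 1.07 for all genes. For Mrps10, a small subunit gene, the mean was 13.6 CPM in neurons and 4.31 in astrocytes, a ratio of 3.16. The ratio was 3.05 for Mrpl42, 2.78 for Mrps2 and 2.76 for Mrpl12.

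The 4 members that went the other way were Mrpl52, mrpl9, Mrpl13 and Mrps6. Mrpl52, a large subunit gene without a bacterial counterpart, ranged from 20.4 to 31.3 CPM in neurons and from 58.9 to 63.7 in astrocytes, which is 2.32 times the neuron mean. The gene mrpl9 ranged from 35.3 to 38.7 in neurons and from 57.4 to 65.7 in astrocytes, 1.61 times as high, and the astrocyte means of Mrpl13 and Mrps6 were 1.39 and 1.23 times the neuron means. For comparison, the median ratio of neurons to astrocytes was 0.769 for 69 cytosolic ribosomal protein genes, 1.78 for 35 nuclear genes of complex I and 1.72 for the 13 genes of mitochondrial DNA. The part of the neuron, astrocyte, mesenchymal and oligodendrocyte lineage markers given above in these differences was not tested.

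**Figure D2:**
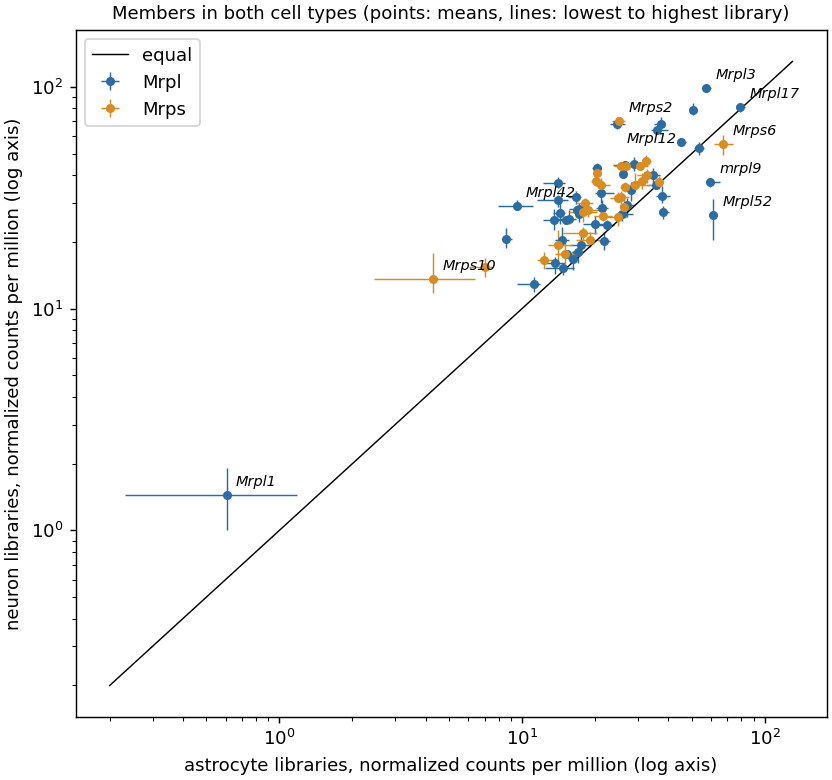
Mean CPM of each member in astrocyte libraries (horizontal) and neuron libraries (vertical), both on log axes, for Mrpl (blue) and Mrps (orange); lines span the lowest to the highest library and the diagonal marks equal shares. Most points lie above the diagonal, Mrpl52 and mrpl9 lie below it, and Mrpl1 lies lowest on both axes.

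In neurons, Allo changed no member past an adjusted p of 0.05, and 3 members were lower in AM-Allo than in AM-Veh at an unadjusted p under 0.05, the cutoff the study took for its gene lists. All 3 encode small subunit proteins with bacterial counterparts: Mrps5, whose protein helps the ribosome to read messages accurately, Mrps2 and Mrps7. This comparison asks whether 16 h of Allo moved the genes of the mitochondrial translation machinery, and it used limma on log2(normalized count + 1) with Benjamini-Hochberg adjustment over the 15314 genes tested. Of all these genes 5.69% were past the unadjusted threshold, 3.21% higher and 2.48% lower, so 3 of 76 members is near the background. After adjustment 4 genes remained, which is 0.0261%, and the lowest adjusted p of a member was 0.795.

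Mrps5 had 886, 902, 875 and 812 normalized counts in the AM-Veh libraries 1-1, 1-2, 2-1 and 2-2 and 796, 831, 799 and 776 in the AM-Allo libraries with the same numbers. A single vehicle library, 2-2, lay within the AM-Allo range. Its log2 fold change was −0.12 ± 0.046 (SE), with a limma p of 0.0289 and an adjusted p of 0.795. Mrps2 had 1610, 1579, 1618 and 1596 in AM-Veh and 1493, 1428, 1579 and 1516 in AM-Allo. The groups met at the AM-Allo library 2-1, which lay within the vehicle range. The log2 fold change was −0.090 ± 0.038 (limma p 0.0358, adjusted p 0.806). Mrps7 had 1009, 1085, 1086 and 1071 in AM-Veh and 1014, 972, 1021 and 978 in AM-Allo, where the vehicle library 1-1 lay within the AM-Allo range. Its log2 fold change was −0.093 ± 0.041 (limma p 0.0435, adjusted p 0.849). Each of these genes kept an unadjusted p under 0.05 when 1 of 2 particular libraries was left out (AM-Veh 2-2 or AM-Allo 1-2 for Mrps5, AM-Veh 1-2 or AM-Allo 2-1 for Mrps2, AM-Veh 1-1 or AM-Allo 2-1 for Mrps7) and lost it without any of the other 6.

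AM-Veh and AM-Allo neuron libraries with the same first number deviated together, and with the replicate numbers as a block more members passed. With the whole number as a block 5 members had an unadjusted p under 0.05, against 10.7% of all genes, and with its first part as a block 6 members did, against 11% of all genes. All of them were lower in AM-Allo and none passed adjustment, against 0.607% and 0.679% of all genes in the 2 fits. The additional genes were Mrpl35 and Mrps6 in both blocked fits and Mrpl18 with the first part alone. Mrps6 is an example of what the block removes: it had 1175 and 1171 in the AM-Veh libraries of first number 1 and 1321 and 1358 in those of first number 2, against 1084, 1115, 1256 and 1256 in AM-Allo. Within each first number the AM-Allo libraries lay below the AM-Veh libraries, although the groups overlapped as a whole. Its log2 fold change of −0.093 had a limma p of 0.20 without and 0.0148 with a block by first number (adjusted p 0.964 and 0.307). Mrpl35 had 781, 766, 741 and 772 in AM-Veh and 738, 756, 672 and 671 in AM-Allo, and only the AM-Allo library 1-2 reached into the vehicle range.

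Over all members, 53 of 76 had a log2 fold change below 0 (69.7%), as did 50.8% of all genes tested. The lower share was 32 of 47 for Mrpl and 21 of 29 for Mrps. By origin, 15 of 18 Mrps genes with bacterial counterparts were below 0, against 5 of 10 of those particular to mitochondria. The shifts of the members were small, since the median log2 fold change was −0.020 for Mrpl, −0.013 for Mrps and −0.0015 for all genes. Without 1 library at a time the medians ranged from −0.031 to −0.0096 for Mrpl (without AM-Allo 2-1 and AM-Allo 1-1) and from −0.037 to −0.011 for Mrps (without AM-Allo 2-1 and AM-Veh 1-1). The cytosolic ribosomal protein genes leaned the same way, with 61 of 71 below 0, as did 11 of 13 genes of mitochondrial DNA and 8 of 9 astrocyte markers. Other lists leaned the opposite way, with 6 of 6 proliferation markers and 7 of 8 oligodendrocyte lineage markers above 0, none at an unadjusted p under 0.05. The neuron markers went in both directions, with 3 of 11 higher and 1 lower at an unadjusted p under 0.05, and their summed level was 62957 to 71002 in AM-Veh and 66777 to 75661 in AM-Allo. The part of these markers in the members' counts was not tested.

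Only Mrpl14 had AM-Allo libraries that did not overlap with AM-Veh libraries, against 3.95% of all genes (2.06% higher and 1.89% lower). Mrpl14, a core large subunit gene, had 305, 293, 289 and 288 in AM-Veh and 281, 276, 286 and 266 in AM-Allo. Every AM-Allo library was lower, with 288.4 in the lowest AM-Veh and 286.0 in the highest AM-Allo library, and the log2 fold change of −0.085 ± 0.060 had a limma p of 0.184 and an exact permutation p of 0.0286, the smallest that 4 libraries against 4 can give. The lowest fitted log2 fold changes were those of Mrpl1 (−0.29 ± 0.20), Mrpl18 (−0.12 ± 0.063) and Mrpl22 (−0.12 ± 0.067), and the highest those of Mrpl2 (0.071 ± 0.068), Mrpl52 (0.053 ± 0.16) and Mrpl54 (0.051 ± 0.049), none with a limma p under 0.05. For 73 of the 76 members the 95% interval lay within a 1.25-fold change either way (64.5% of all genes), the exceptions being Mrpl1, Mrps10 and Mrpl52. For Mrpl52 the interval on the log2 scale was −0.31 to 0.42, and its libraries fell into 2 separate ranges by first replicate number.

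In astrocytes, members lay on both sides of their vehicle level under Allo, and again none passed an adjusted p of 0.05. Mrps18a and Mrpl51, both of the large subunit, were lower in AM-Allo at an unadjusted p under 0.05, and Mrps35 and Mrps34, both small subunit genes without bacterial counterparts, were higher. Mutations of Mrps34 are a known cause of Leigh syndrome, a disease of mitochondrial energy supply. These 4 of 76 members stand against 7.01% of the 15380 genes tested (3.72% higher and 3.29% lower), so 4 of 76 is near the background. After adjustment 1 gene in all remained, which is 0.0065%.

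Mrps18a had 716, 651 and 682 normalized counts in the AM-Veh libraries 1, 2 and 3 and 578, 615 and 596 in the AM-Allo libraries. All AM-Allo libraries were lower than all AM-Veh libraries. The log2 fold change was −0.19 ± 0.061 (SE), with a limma p of 0.00735, an adjusted p of 0.519 and an exact permutation p of 0.10, the smallest that 3 against 3 can give. Its unadjusted p stayed under 0.05 without each of the 6 libraries in turn, between 0.0064 and 0.039. In neurons the same gene had 964 ± 24.1 in AM-Veh and 973 ± 32.2 in AM-Allo (SD, n = 4), with a log2 fold change of 0.013 and a limma p of 0.754. A difference between the cell types was not tested. Of its relatives in astrocytes, Mrps18b had 612 ± 33.2 in AM-Veh and 606 ± 30.1 in AM-Allo (SD, n = 3), and Mrps18c had 339 ± 12.1 and 378 ± 29.3 with overlapping libraries (limma p 0.0892, adjusted p 0.77).

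Mrpl51 had 899, 943 and 975 in AM-Veh and 871, 871 and 851 in AM-Allo, so the AM-Allo libraries lay close together below all AM-Veh libraries. The log2 fold change was −0.12 ± 0.052 (limma p 0.0399, adjusted p 0.701). Mrps35 had 775, 758 and 713 in AM-Veh and 811, 825 and 824 in AM-Allo, where every AM-Allo library was higher (log2 fold change 0.13 ± 0.055, limma p 0.0312, adjusted p 0.684). Mrps34 had 417.2, 373 and 401 in AM-Veh and 484, 450.3 and 417.4 in AM-Allo, and the closest libraries of the 2 groups differed by less than 1 count (log2 fold change 0.18 ± 0.080, limma p 0.0403, adjusted p 0.705). Of the 6 fits that each leave out 1 library, Mrpl51 stayed past the unadjusted threshold only without AM-Veh 1, Mrps34 only without AM-Veh 1 or AM-Allo 3, and Mrps35 only without AM-Veh 1, AM-Veh 2 or AM-Allo 1. With the replicate number as a block, Mrpl51 had a limma p of 0.0553, and the 3 other members remained past the threshold, against 7.17% of all genes (0.111% after adjustment).

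**Figure D3:**
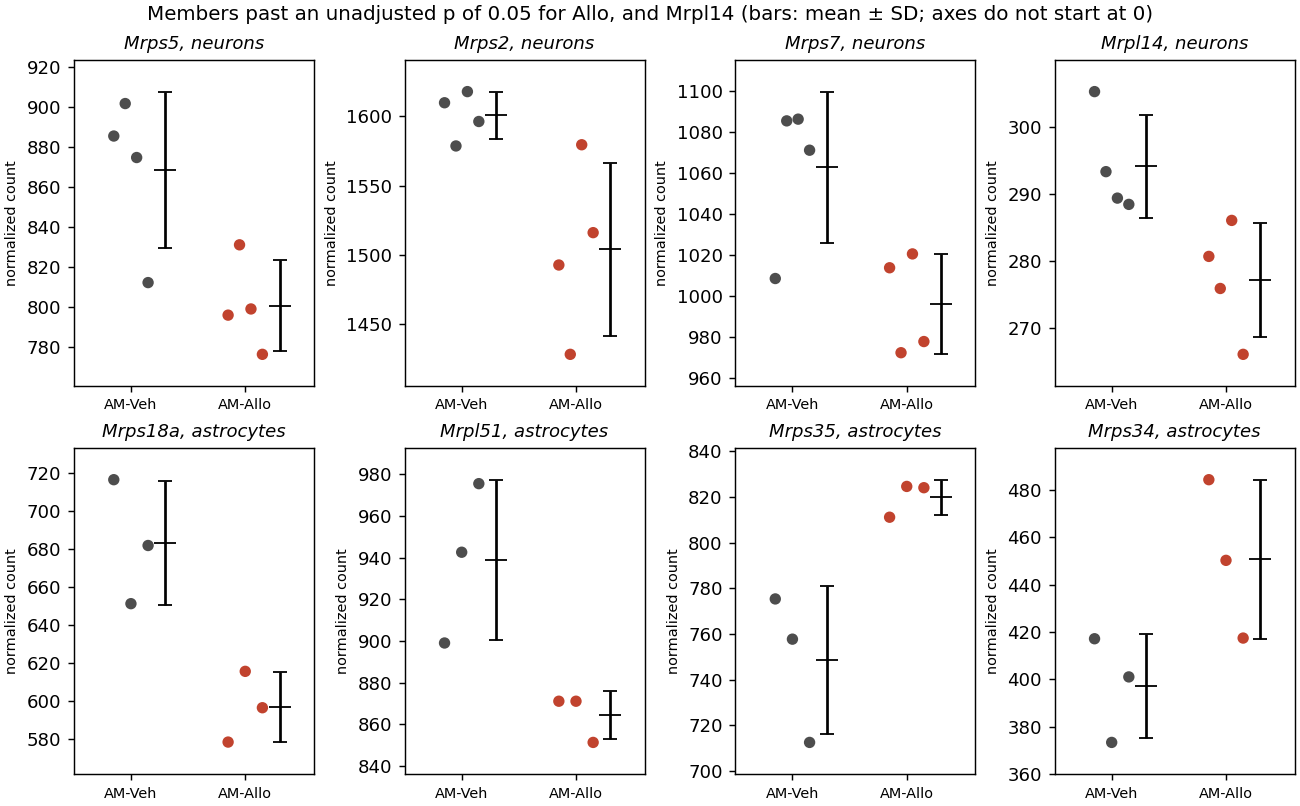
Normalized counts by library of the members past an unadjusted p of 0.05 for Allo, and of Mrpl14, with group means and SD in black; the vertical axes do not start at 0. AM-Allo libraries (red) overlap AM-Veh libraries (grey) for Mrps5, Mrps2 and Mrps7 in neurons and lie apart from them for Mrpl14 in neurons and for Mrps18a, Mrpl51, Mrps35 and Mrps34 in astrocytes.

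The groups did not overlap for 11 members in astrocytes, 7 higher and 4 lower, against 12.5% of all genes (6.42% higher and 6.07% lower). A count of 11 of 76 is near the background. Beside the 4 genes above, the members without overlap were Mrps11 and Mrps30, lower in AM-Allo, and Mrps25, Mrpl19, Mrpl43, Mrpl41 and Mrpl2, higher. Their limma p-values ran from 0.102 to 0.432. Mrps30 had 492.5, 492 and 495 in AM-Veh and 462, 482 and 462 in AM-Allo. Its vehicle libraries were the tightest of these genes and its log2 fold change was −0.074 ± 0.064. Mrps11, which shares a start region with Mrpl46, had 498, 554 and 519 in AM-Veh and 489, 483 and 475 in AM-Allo. Mrpl41 had 657, 675 and 626 in AM-Veh and 684, 678 and 699.6 in AM-Allo. Mrps10, at low counts, had 66.4, 96.2 and 116 in AM-Veh and 58.5, 127 and 153.5 in AM-Allo. Its AM-Allo range enclosed all vehicle libraries, and its log2 fold change of 0.21 ± 0.30 had a limma p of 0.499. The lowest fitted values after Mrps18a were those of Mrpl1 (−0.19 ± 0.49) and Mrpl42 (−0.18 ± 0.11), neither with a limma p under 0.05.

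Over all members 38 were above and 38 below 0 in astrocytes, with medians of 0.0088 for Mrpl, −0.014 for Mrps and 0.0014 for all genes on the log2 scale. With subunits assigned by the place of the protein, the medians were 0.0032 for 49 large and 0.0043 for 26 small subunit genes. The 95% interval lay within a 1.25-fold change for 68 of 76 members, against 62.5% of all genes. Of 9 astrocyte markers 2 were lower at an unadjusted p under 0.05, with a summed level of 240590 to 253760 in AM-Veh and 239670 to 243760 in AM-Allo, and their part in the members' values was not tested. Besides Mrpl1, Mrps10, Mrps18a and Mrps34, the exceptions were Mrps18c, Mrpl42, Mrpl32 and Mrps24.

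**Figure D4:**
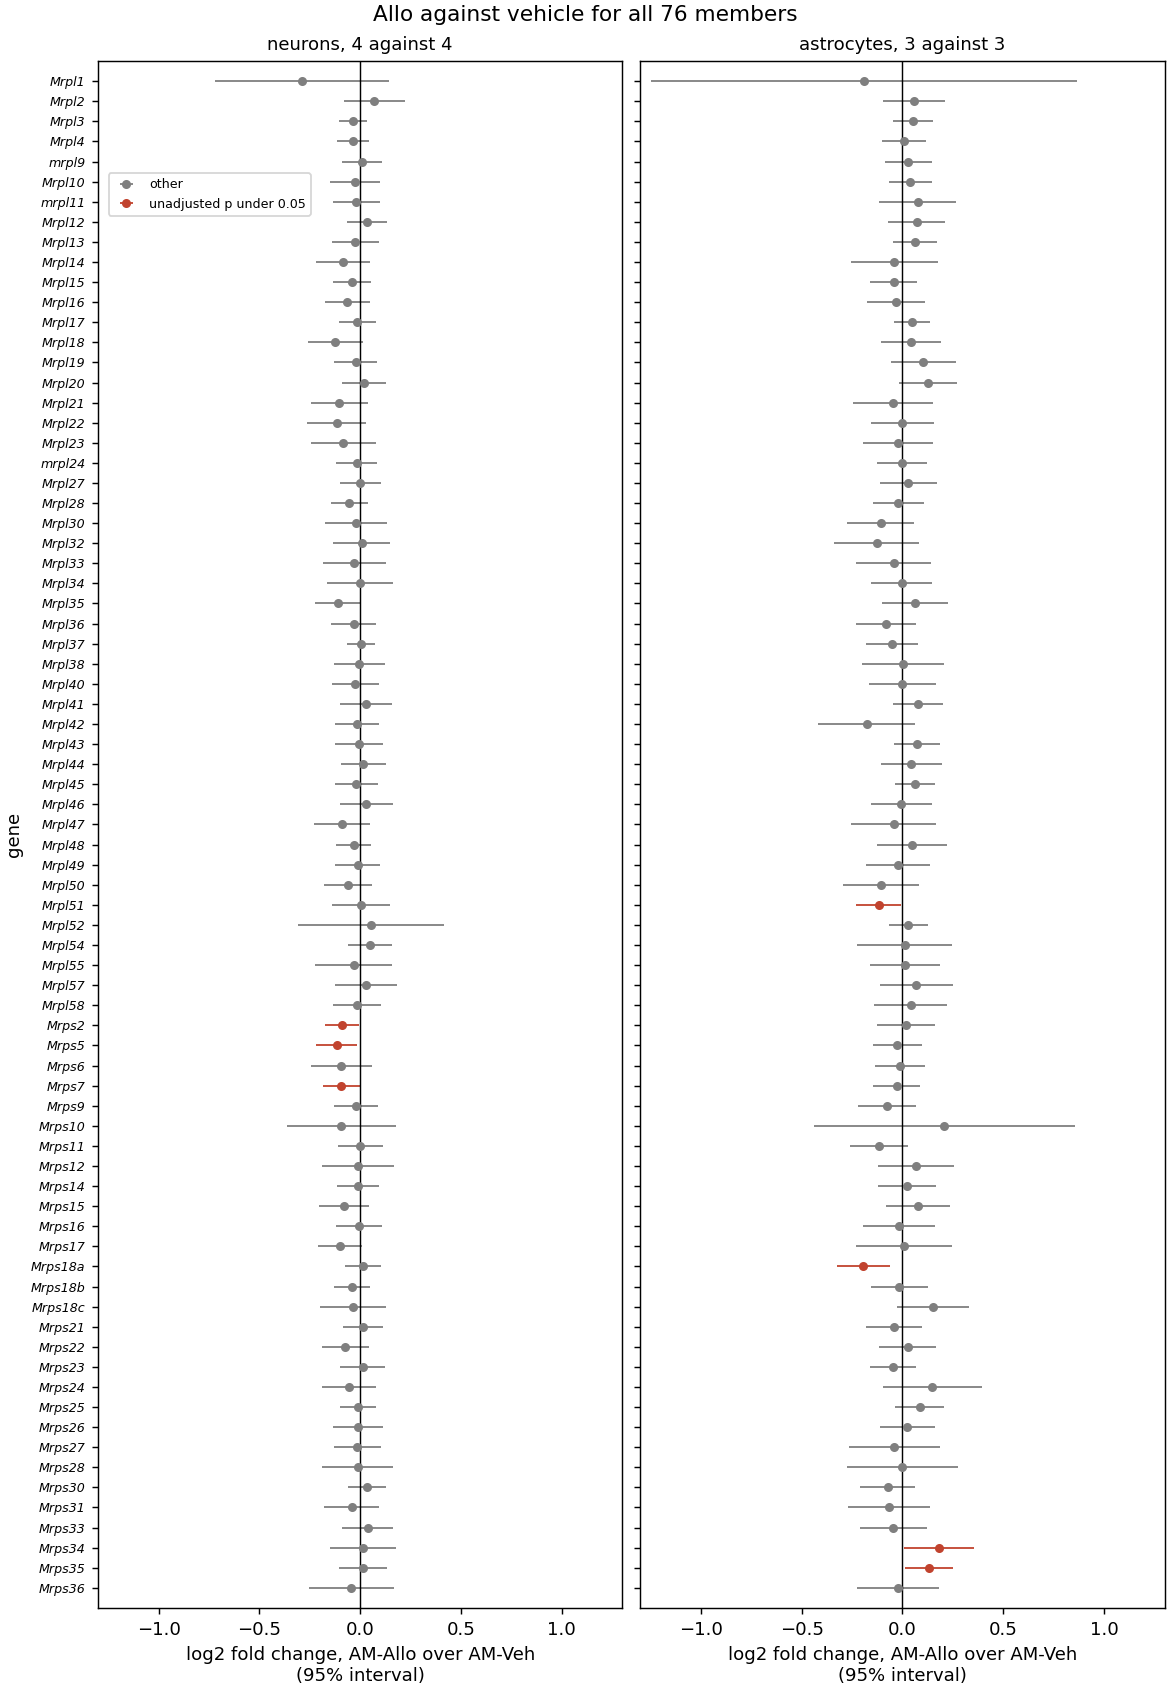
Log2 fold change of AM-Allo over AM-Veh with its 95% interval for each of the 76 members, in neurons (left) and astrocytes (right); red marks an unadjusted limma p under 0.05. Most intervals cross 0, 3 small subunit genes lie below it in neurons, and in astrocytes Mrps18a and Mrpl51 lie below and Mrps34 and Mrps35 above.

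Members grouped by the promoter sequences shown above gave small counts in each direction. The 10 members with the NRF1 sequence (1 open base) held 4 higher and 6 lower genes in neurons and 6 higher and 4 lower in astrocytes, with no unadjusted p under 0.05 in either. Of the genes with the exact palindrome, Mrpl17 had log2 fold changes of −0.014 in neurons and 0.046 in astrocytes, Mrpl32 of 0.0067 and −0.13, Mrpl44 of 0.016 and 0.045 and Mrps18b of −0.042 and −0.015. The 7 members with the YY1 sequence were 4 higher and 3 lower in neurons and 1 higher and 6 lower in astrocytes, and Mrps18a was the member past the unadjusted threshold among them. The 7 members with the ETS and GABP sequence were 2 higher and 5 lower in neurons and 6 higher and 1 lower in astrocytes, and the 40 members with none of the sequences were 11 higher and 29 lower in neurons and 16 higher and 24 lower in astrocytes. These are counts over few genes that share libraries, and no test was made of them.

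Genes that work with the mitochondrial ribosome were taken from lists and tested in the same fits. In neurons 5.69% of all genes passed the unadjusted threshold, 3.21% higher and 2.48% lower. None did among 5 further mitoribosome genes under other symbols, 15 mitochondrial translation factors, 22 mitochondrial aminoacyl-tRNA synthetases and 30 assembly factors. Of 14 genes of mitochondrial transcription and its regulators, Tefm, the mitochondrial transcription elongation factor, was lower in AM-Allo (227 ± 7.93 against 189 ± 20.4, SD, n = 4; limma p 0.0126, adjusted p 0.694). In astrocytes 1 gene of each list but the synthetases was higher at an unadjusted p under 0.05 (against 3.72% of all genes higher). These were Gadd45gip1, a large subunit component (556 ± 5.20 and 623 ± 9.80; adjusted p 0.571), Slirp, which binds mitochondrial messages (240.4 ± 7.49 and 286 ± 28.5; adjusted p 0.668), Rbfa, a small subunit assembly factor (485 ± 19.7 and 538 ± 20.5; adjusted p 0.70), and the transcription factor gene Myc (392 ± 15.2 and 468 ± 63.3; adjusted p 0.625), each by limma with SD and n = 3.

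Of the 13 messages that the mitochondrial ribosome translates, 11 had a log2 fold change below 0 in AM-Allo astrocytes and 2 above 0. They share libraries, so they do not count as independent genes. Of the 13 genes of mitochondrial DNA, 9 were lower in AM-Allo at an unadjusted p under 0.05 (against 3.29% of all genes lower), with Mt-nd4l at a log2 fold change of −0.25 ± 0.056 (limma p 0.000547, adjusted p 0.269), while 2 of 76 members were lower and 2 higher. Of 69 cytosolic ribosomal protein genes in astrocytes, 14 were higher and 1 lower at that threshold, against 3.72% and 3.29% of all genes. Whatever their p, 34 of the 69 had a log2 fold change above 0 and 35 below. Of 71 in neurons 0 were higher and 2 lower, against 3.21% and 2.48% of all genes, so the lower count is near the background. No gene of mitochondrial DNA and no cytosolic ribosomal protein gene passed adjustment.

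Neuron libraries carry a replicate number in 2 parts, and libraries that differ in the first part differed for many genes whichever treatment they had. The labels do not say what the first number stands for. With treatment as a term, 29.3% of all genes had an unadjusted p under 0.05 between first number 2 and 1 and 17.2% an adjusted p under 0.05 (9.61% higher and 7.61% lower in 2). Among members 13 passed the unadjusted threshold, 8 higher and 5 lower, and 7 passed adjustment. The libraries of the 2 first numbers did not overlap for 8 members higher and 3 lower in 2, against 10.2% and 9.47% of all genes. The 95% interval lay within a 1.25-fold difference for 71 members, against 62.8% of all genes.

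Mrpl52 differed most. It had 449, 486, 477 and 533 normalized counts in the libraries of first number 1 (AM-Veh 1-1 and 1-2, AM-Allo 1-1 and 1-2) and 698, 678, 687.5 and 684.0 in those of first number 2. The 2 ranges lay apart, and within each the AM-Veh and AM-Allo libraries overlapped. The log2 difference was 0.50 ± 0.054 (limma adjusted p 1.13e-05). Mrps6, given above, had 1136 ± 44.1 in first number 1 and 1298 ± 50.3 in first number 2 (SD, n = 4; log2 difference 0.19 ± 0.034, limma adjusted p 0.000914). Of the 4 members that were higher in astrocyte than in neuron libraries, Mrpl52 and Mrps6 were thus higher in first number 2, while mrpl9 and Mrpl13 had log2 differences of 0.059 and −0.044 (limma adjusted p 0.379 and 0.621). Astrocyte markers differed in both directions, with 4 of 9 higher and 2 lower in first number 2 past adjustment. Their summed level was 198970 to 210910 in first number 1 and 236140 to 258960 in first number 2, in which Gfap alone had 68164 to 78721 and 107400 to 118740, whereas Aldoc had 7544 to 7808 and 6445 to 6837. Their part in these differences was not tested.

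The other members past adjustment were Mrpl55, Mrpl10 and Mrpl45, higher in first number 2, and Mrps36 and Mrpl51, lower. Mrpl10, whose protein anchors the stalk that Mrpl12 belongs to, had 1115 ± 30.4 and 1227 ± 27.9 (SD, n = 4; limma adjusted p 0.0161). Mrpl45, whose protein helps to dock the ribosome at the inner membrane, had 1672 ± 22.9 and 1802 ± 56.5 (adjusted p 0.0327), and Mrpl55 had 556 ± 29.9 and 644 ± 32.1 (adjusted p 0.0141). Mrps36 had 460.1 ± 36.2 in first number 1 and 396 ± 19.8 in first number 2 (log2 difference −0.21 ± 0.067, adjusted p 0.038), and its ranges overlapped at the AM-Allo library 1-1 of 410.2. Mrpl51 had 748 ± 35.3 and 676 ± 7.78 (log2 difference −0.14 ± 0.046, adjusted p 0.0432). Of the 7 genes, Mrpl52 and Mrps6 passed adjustment without each of the 8 libraries in turn.

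**Figure D5:**
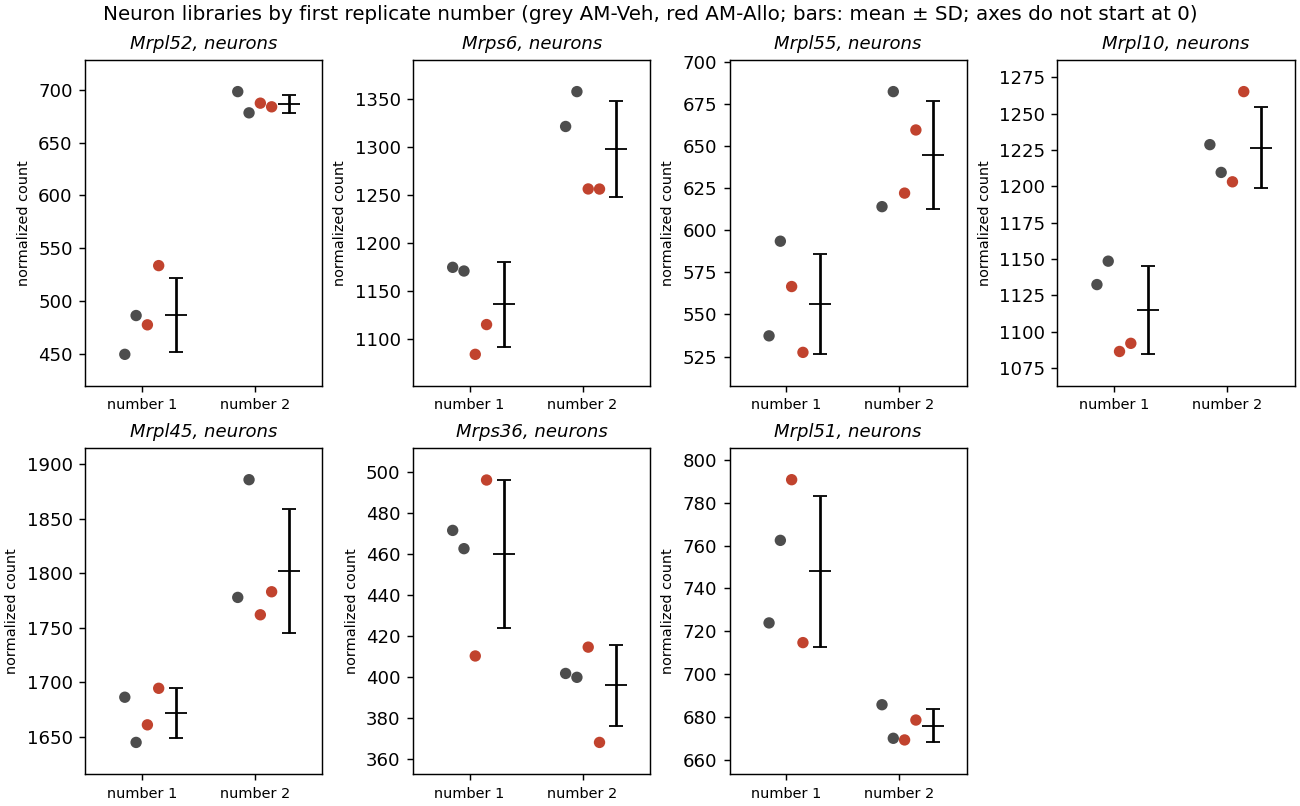
Normalized counts in the 8 neuron libraries, grouped by first replicate number, of the 7 members past an adjusted p of 0.05 for that difference (grey AM-Veh, red AM-Allo; means and SD in black; the vertical axes do not start at 0). For Mrpl52 the libraries lie between 449 and 533 at first number 1 and between 678 and 698 at first number 2.

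The members below adjustment but past the unadjusted threshold were Mrpl34, Mrpl38 and Mrpl27, higher in first number 2, and Mrpl43, Mrpl12 and Mrpl47, lower. Mrpl12 had 1554 ± 61.4 and 1466 ± 22.6 and Mrpl43 had 922 ± 22.0 and 859 ± 35.3 (SD, n = 4; limma adjusted p 0.124 and 0.123). Gene groups around the ribosome differed unequally. At an unadjusted p under 0.05, 15.3% of all genes were higher and 14.1% lower in first number 2. Of 71 cytosolic ribosomal protein genes 38 were higher and 2 lower, while of 35 nuclear genes of complex I 17 were lower and 1 higher. The members' medians were 0.028 for Mrpl, 0.018 for Mrps and −0.0026 for all genes on the log2 scale. With 1 library left out the Mrpl median lay between 0.012 (without AM-Veh 1-2) and 0.031, and the Mrps median between −0.010 and 0.026, below 0 when AM-Allo 1-1, AM-Allo 2-1 or AM-Veh 1-2 was left out. The mesenchymal and endothelial markers separated the first numbers, with summed levels of 674 to 2232 in 1 and 272 to 412 in 2 and 4 of 6 lower and 1 higher past adjustment. The markers of the oligodendrocyte lineage (42276 to 45308 in first number 1, 38365 to 39078 in 2), of proliferation (5538 to 6103 and 4610 to 4913), and of microglia (92.6 to 112 and 158 to 165) also separated them. In the microglia sum Cd68 had 59.1 to 82.0 and 123 to 135, while Csf1r had 4.08 to 19.6 and 0 to 4.65. The part of these markers was not tested.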

How the data were processed

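RNA-seq of 14 libraries was analysed. The authors prepared stranded poly(A)-selected libraries, sequenced both ends, estimated transcript abundance with Salmon 0.14 on a rat annotation, collapsed it to genes with tximport and applied the normalization of DESeq2 1.18.1. They deposited for each cell type the normalized signal (counts per gene divided by normalization factors) and variance-stabilized (VST) values close to log2, both by symbol. Whole reads could not be recovered, so no count test was run. Depth was estimated from the lowest values of each library.

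Log2(normalized count + 1) was compared with limma 3.58.1 (lmFit, eBayes with a trend) in R 4.3.3, in each cell type alone, for genes with a mean of at least 10. Adjustment followed Benjamini and Hochberg, across every gene tested in a fit. Exact permutation tests over libraries were two-sided. The fit was tested on simulated data. The tables were normalized separately, so no test compared cell types.

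AM-Veh and AM-Allo neuron libraries that share the first number deviated together, as correlations over genes after removing group means. These were 0.296, 0.229, 0.265 and 0.273 with the same whole number and 0.185 to 0.236 with only the first part shared. They were −0.319 to −0.15 with different first numbers. Blocked fits therefore stand beside the neuron results where they changed a call. The neuron VST table has equal means for the first numbers, so it gave no value for that comparison. Named genes were the members past an unadjusted p of 0.05, the 3 highest and lowest fold changes, members without overlap, the 5 smallest p in each direction for the first number, and 14 members chosen by role. From each other list, up to 2 genes of smallest p in a direction were eligible. Parts of the rule that need lengths were not applied. The members and lists were chosen with earlier results of these data known. Mrpl18 and Mrpl35 values with the block, Mrps6 in neurons, Mrpl2 in astrocytes, Mrpl52 by cell type and the promoter groups were chosen after values were seen. So were Mrpl27, Mrpl34 and Mrpl38 for the first number. Protein sequences and transcript lengths were not used here.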

Additional observations from a re-analysis of the deposited data

Results flagged for a closer look

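In the AM-Veh neurons, Mrpl47 had 506.8 normalized counts in library 1-1 and 455.8 to 464.3 in the other 3 libraries. The gap of this library took 0.833 of the group's range, above Dixon's 95% critical value for 4 values. It was the single library to stand apart in this way among 44 groups of 4 libraries looked at, and chance alone marks about 1 group in 20. No member moved in opposite directions in neurons and astrocytes with every AM-Allo library apart from every AM-Veh library in both, among 76 compared.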

How the results depend on the processing

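For Allo in neurons, 3 members had an unadjusted p under 0.05. The number was 7 on VST values, where 14.4% of all genes passed. Those values have equal means for the first numbers and were fitted without a block. The number was 5 with the whole replicate number as a replicate block, 6 with its first part, and 0 to 3 when 1 library was left out. It was 0 without AM-Veh 2-1 or AM-Allo 2-2 and 1 without AM-Veh 1-2 or AM-Veh 2-2. For Allo in astrocytes the 4 members became 1 to 6 when 1 library was left out, with 1 without AM-Veh 3 or AM-Allo 2, 2 without AM-Allo 3 and 6 without AM-Allo 1. The astrocyte median log2 fold change then ranged from −0.0093 to 0.037 for Mrpl and from −0.023 to 0.029 for Mrps, and the neuron median for Allo from −0.031 to −0.0096 and from −0.037 to −0.011. For the first number the 13 members became 8 to 14 when 1 library was left out, with 8 without AM-Allo 1-1, and its medians ranged from 0.012 to 0.031 for Mrpl and from −0.010 to 0.026 for Mrps. Its 7 members past adjustment became 4 in the fits that leave out AM-Allo 1-1, AM-Allo 1-2 or AM-Veh 1-2, 2 (Mrpl52 and Mrps6) in the fit that leaves out AM-Allo 2-2, and 3 in the fit with no trend of variance on level. Named genes changed sign only with 1 library left out. Mrpl52 in neurons then ranged from −0.059 to 0.15 on the log2 scale for Allo, Mrps10 in astrocytes from −0.066 to 0.62 and Mrpl1 in astrocytes from −0.77 to 0.31. The causes were not tested. Other pseudocounts, filters, scalings and spellings of the symbols kept the counts within 1.5 times. Astrocyte replicate numbers did not pair the libraries (correlations of 0.024, −0.007 and 0.012), and with them as a replicate block 3 members passed, without Mrpl51. The neuron VST values gave no result for the first number. With 3 or 4 libraries a group, changes smaller than the printed 95% intervals were not detectable.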

Other observations

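The levels of genes around the mitochondrial ribosome were set side by side between neurons and astrocytes, as CPM in separately normalized tables and without a test. Of all genes, 40.2% lay higher in every neuron library than in any astrocyte library and 30.5% lower, with a median ratio of 1.07. Every neuron library lay above every astrocyte library for 10 of 15 mitochondrial translation factors and below for 2, with a median ratio of 1.37. The counts were 13 and 3 of 22 mitochondrial aminoacyl-tRNA synthetases (median 1.37) and 16 and 3 of 30 assembly factors (median 1.16). They were 6 and 1 of 14 genes of mitochondrial transcription and its regulators (median 1.20). In this last list the higher count was near the share of all genes and the lower count was below it.

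The first replicate number in neurons also separated single genes of these lists at a limma adjusted p under 0.05, against 17.2% of all genes. Lower in first number 2 were 1 of 5 further mitoribosome genes, 1 of 15 translation factors and 2 of 14 genes of transcription and its regulators. Of 22 synthetases 1 was higher and 1 lower, and 1 of 30 assembly factors was higher. Not all of them are named here. Lower in first number 2 were Ptcd3, a small subunit protein that binds RNA (1684 ± 26.2 and 1517 ± 63.1 normalized counts, SD, n = 4; limma adjusted p 0.00654), Guf1, a translation factor (800.2 ± 38.0 and 699 ± 26.7; adjusted p 0.00715), and Ppargc1a, a coactivator of mitochondrial biogenesis (825 ± 28.3 and 735 ± 34.3; adjusted p 0.0157). Gars, the glycyl-tRNA synthetase used in both cytosol and mitochondria, was higher (3495 ± 142 and 3994 ± 43.8; adjusted p 0.000164), as was the assembly factor gene Mtg1 (307 ± 13.5 and 360.4 ± 18.7; adjusted p 0.0256).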
